A study of Mus musculus with 12 samples.

Results

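The genes described here are 10 immediate early response genes of the mouse: the zinc finger factors Egr1, Egr2 and Egr3, the orphan nuclear receptors Nr4a1, Nr4a2 and Nr4a3, the immediate early response genes Ier2, Ier3 and Ier5, and Srf, the gene of serum response factor. They were taken by their Entrez gene IDs, a rule that uses no measured value, from a table of 27179 genes. All 10 passed the filter on low counts and were among the 12750 genes tested, but Nr4a2 exceeded the filter level of 0.303 CPM (counts scaled to the size of the library) in only 6 of 12 libraries, and in both libraries of a stage only at 3 h and in plasmablasts. Ier3 exceeded it in 10 libraries, Nr4a3 in 11, and the other members in all 12.

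Gene expression was measured by RNA-Seq in B cells from the spleens of male C57BL/6 (Pep3b) mice of 6 to 12 weeks, in 6 stages with 2 biological replicates each. Naive resting cells were sorted by surface markers that included B220, IgM and a high level of IgD, and without TCRβ. The other stages came from B cells enriched by negative selection and cultured with 25 µg/ml lipopolysaccharide (LPS) of Salmonella typhosa, a ligand of Toll-like receptor 4. Cells that expressed the activation marker CD69 and had not divided, by the dye CellTrace Violet that is diluted at each division, were sorted after 3, 10 and 33 h. In cultures seeded at a lower cell density, on day 4 expanded cells were sorted as positive for CD22 and negative for CD138, and plasmablasts as the reverse. The labels name no transgene, knockout or second agent, and no library of cells cultured without LPS is among the 12, so that effects of LPS and of culture cannot be told apart.

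Immediate early genes are transcribed within minutes of a stimulus from factors that the cell already holds, and their transcripts are typically short-lived. SRF is such a factor: it binds the CArG box in the promoters of Fos, Egr1 and other genes, together with ternary complex factors phosphorylated by ERK, or with the actin-regulated MRTF coactivators. The EGR proteins bind GC-rich sites and are restrained by the corepressors NAB1 and NAB2. The NR4A receptors act without a known physiological ligand. Nr4a1 and Egr1 are widely used reporters of antigen receptor signalling in lymphocytes. IER2, IER3 and IER5 are small proteins without a zinc finger or receptor domain, with reported roles in transcription, survival signalling and the heat shock response.

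Promoter sequences were taken from RefSeq (GRCm38.p6) as windows from 250 bases before to 50 bases after each transcript start, and 7 of the 10 members had at least 1 window, Egr1, Egr3 and Ier2 being the exceptions. The Nr4a promoters are printed because these paralogues had the largest rises of the 10 genes at 3 h, with TGACG, the core of the cAMP response element, in capitals (CGTCA where it lies on the other strand). All sequences run 5′ to 3′ along the gene's strand and stop where an exon of GENCODE begins, and that of Nr4a3 stops 30 bases into the RefSeq gene, which starts within its window.
Nr4a1, chr15:101266596-101266845, plus strand: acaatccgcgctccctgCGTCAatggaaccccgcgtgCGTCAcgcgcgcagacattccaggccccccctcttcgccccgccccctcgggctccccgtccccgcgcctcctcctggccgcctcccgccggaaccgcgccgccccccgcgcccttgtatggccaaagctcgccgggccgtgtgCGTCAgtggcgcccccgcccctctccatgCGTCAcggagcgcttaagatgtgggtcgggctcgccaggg
Nr4a2, chr2:57124004-57124253, minus strand: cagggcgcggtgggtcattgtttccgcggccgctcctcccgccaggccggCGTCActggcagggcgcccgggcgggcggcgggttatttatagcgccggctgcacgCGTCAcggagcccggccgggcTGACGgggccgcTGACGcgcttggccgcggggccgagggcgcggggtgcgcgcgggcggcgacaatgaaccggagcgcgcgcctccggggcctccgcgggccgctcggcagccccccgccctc
Nr4a3, chr4:48045055-48045107, plus strand: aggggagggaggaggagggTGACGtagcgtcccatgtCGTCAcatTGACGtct

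The promoters of Srf and of one Egr2 transcript are printed because they hold the CArG box, the site of the SRF protein itself: CC, 6 bases of A or T, and GG, in capitals below. In the Egr2 stretch the TGACG cores are in capitals too.
Srf, chr17:46556176-46556412, minus strand: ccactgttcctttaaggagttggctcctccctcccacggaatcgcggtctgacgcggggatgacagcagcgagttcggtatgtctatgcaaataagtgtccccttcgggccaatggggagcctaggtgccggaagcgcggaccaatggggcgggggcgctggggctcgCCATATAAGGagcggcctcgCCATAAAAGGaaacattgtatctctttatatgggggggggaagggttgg
Egr2, chr10:67537619-67537868, plus strand: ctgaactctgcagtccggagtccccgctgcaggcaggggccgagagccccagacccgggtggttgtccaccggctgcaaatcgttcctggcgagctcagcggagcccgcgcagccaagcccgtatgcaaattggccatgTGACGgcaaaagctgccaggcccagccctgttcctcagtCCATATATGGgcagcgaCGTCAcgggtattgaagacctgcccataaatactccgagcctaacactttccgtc

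In the GENCODE annotation, the Nr4a1 stretch lies in an intron of the longest Nr4a1 transcript and directly before the start of the others. The Egr2 stretch likewise lies in an intron of longer transcripts and before the start of the main one. The Nr4a2, Nr4a3 and Srf stretches lie upstream of the first GENCODE exon, although the RefSeq gene spans of Nr4a3 and Srf begin further out. The Nr4a1, Egr2 and Srf stretches lie within their RefSeq gene spans. Over the full windows, the TGACG core was found on either strand in Egr2, Nr4a1, Nr4a2, Nr4a3 and Srf, and in 20.8% of all 32851 windows of this length. The windows of Nr4a1, Nr4a2 and Nr4a3 each held 4 TGACG cores. The complete cAMP response element TGACGTCA, which contains that core, was in none of the members' windows and in 1.79% of all. The CArG box was in Srf, at 2 places, in Egr2, at different places in different windows, and in 1.63% of all windows. Egr2 was searched in 5 windows and each other member with a window in 1, whereas the percents are per window. The EGR site GCGNGGGCG was in Nr4a1, Nr4a2 and Srf (5.55% of all windows), the ETS core CCGGAA in Egr2, Nr4a1 and Srf (14.9%), TATAAA in Nr4a2 and Srf (13.6%), and the NR4A monomer site AAAGGTCA in no member (1.51%). The windows of Ier3 and Ier5 held none of the 7 motifs searched. These matches are letters in a window of 300 bases and were not tested as binding sites.

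**Figure D1:**
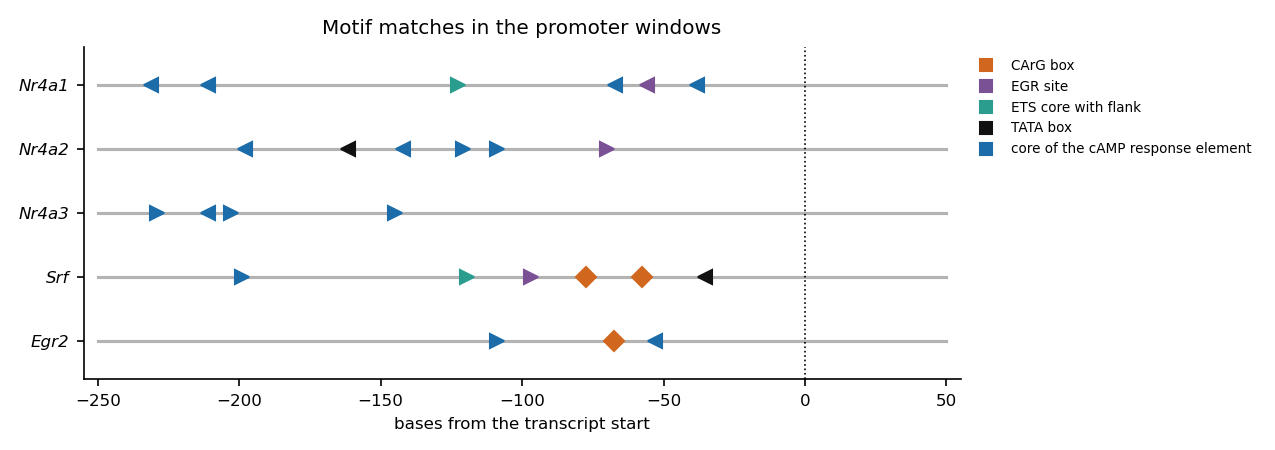
Motif matches in 5 promoter windows, by distance in bases from the transcript start (dotted line, 0), one gene a row. Right and left triangles are matches on the gene's own and the opposite strand. Diamonds are places where both strands match the motif, and colours are the motifs. The 3 Nr4a windows each hold 4 TGACG cores, and the CArG boxes lie within 100 bases before the starts of Srf and Egr2.

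Library totals were 23026619 to 60585587 counts (median 37839944). Levels are given as RPKM, that is, CPM on TMM-scaled library sizes per kilobase of exon. Folds and tests come from edgeR's quasi-likelihood test against a fold change of 1.5, with Benjamini-Hochberg adjusted p over all 12750 genes. Log2 fold changes are followed by their standard error, and gene coordinates are those of RefSeq on GRCm38.p6, the patched form of mm10. Cd22, one of the sort markers, was at 418 and 393 CPM in expanded cells and at 1.36 and 1.14 in plasmablasts, and the 4 plasmablast markers summed to 1536 and 1811 in expanded cells and to 16080 and 15421 in plasmablasts. The naive libraries also held transcripts of other cells. The 9 myeloid markers summed to 282 and 124 CPM in naive cells, with Lyz2 at 131 and 54.9, against 0.341 to 37.5 at the later stages, where Lyz2 was at 0 to 0.0527. The 6 erythroid and megakaryocytic markers summed to 127 and 91.2 in naive cells against at most 1.49 later, and the 5 NK cell markers to 19.1 and 16.9 against at most 5.14. The 9 T cell markers summed to 9.16 or less in every library, with Cd3e at no more than 0.235. The part of these other cells in the naive levels given below was not tested. As the libraries are of bulk cells, fewer cells with a transcript and less of it per cell cannot be told apart.

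Of the 10 genes, those of the Nr4a family had the largest fitted rises at 3 h and the largest falls by 10 h. Nr4a1 (also Nur77; Entrez 15370; chr15:101253902-101274795) stood at 11.5 and 10.8 RPKM in the naive libraries, 495 and 308 after 3 h, 10.6 and 12.1 after 10 h, 8.61 and 5.56 after 33 h, 1.49 and 2.42 in expanded cells, and 2.09 and 3.13 in plasmablasts. The 2 libraries at 3 h held 92.2% of the RPKM summed over the 12 libraries, and no other library overlapped them. Its 36.0-fold rise from naive cells to 3 h (log2 fold change 5.17, SE 0.28, adjusted p = 3.6e-07) took it from the 57.4th to the 98.7th percentile of tested genes by RPKM. Its 35.4-fold fall by 10 h (log2 -5.15, SE 0.27, adjusted p = 1.1e-06) returned it to the naive range, since the 10 h and naive libraries overlapped. Nr4a1 fell again from 33 h to expanded cells (log2 -1.88, SE 0.32, adjusted p = 0.0079), so that both day 4 populations were below naive cells (log2 -2.52, SE 0.32, adjusted p = 1.6e-04 for expanded cells; log2 -2.08, SE 0.32, adjusted p = 6.7e-04 for plasmablasts). The second fall was not called without replicate 1 of the 33 h cells (adjusted p = 0.079) or of the expanded cells (adjusted p = 0.069).

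Nr4a3 (Entrez 18124; chr4:48045078-48086447) followed the course of Nr4a1 at a lower level: 0.658 and 0.844 RPKM in the naive libraries, 80.5 and 44.4 after 3 h, 1.43 and 1.57 after 10 h, 1.31 and 1.14 after 33 h, 0.492 and 0.637 in expanded cells, and 0.202 and 0.187 in plasmablasts. No neighbouring stages overlapped in the order of its levels. It rose 83.6-fold at 3 h (log2 6.39, SE 0.30, adjusted p = 4.3e-09), the 52nd largest log2 fold change of the 12750 genes tested, and fell 41.5-fold by 10 h (log2 -5.37, SE 0.24, adjusted p = 3.9e-08), the 20th largest fall. In plasmablasts, with 9 and 10 counts, it was below its naive level (log2 -1.92, SE 0.55, adjusted p = 0.013), a call lost without plasmablast replicate 2 (adjusted p = 0.061).

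Nr4a2 (Entrez 18227; chr2:57106830-57124003), the paralogue best known from dopaminergic neurons, was not detected in naive cells, with 0 counts in both libraries. It had 109 and 120 counts after 3 h (1.82 and 1.18 RPKM), 11 and 18 after 10 h, 12 and 6 after 33 h, 12 and 3 in expanded cells, and 22 and 34 in plasmablasts (0.278 and 0.358 RPKM). Against a floor of 3 counts in each naive library its level at 3 h was at least 48.9-fold higher (adjusted p = 1.2e-06), at 10 h at least 3.44-fold and in plasmablasts at least 10.4-fold. At 33 h and in expanded cells the bounds were only 1.84-fold and 1.91-fold, from 18 and 15 counts over both libraries. It fell 14.3-fold from 3 h to 10 h (log2 -3.84, SE 0.44, adjusted p = 2.6e-05) and was called higher in plasmablasts than in expanded cells (log2 2.38, SE 0.57, adjusted p = 0.0082). The day 4 difference rests on few reads and was not called without expanded replicate 2 (adjusted p = 0.069) or plasmablast replicate 2 (adjusted p = 0.057). Whether it differed from those of Nr4a1 (log2 0.44, SE 0.35) and Nr4a3 (log2 -1.52, SE 0.55, adjusted p = 0.088) was not tested. The lower level of Nr4a3 in plasmablasts was called in 7 of 24 alternatives, among them DESeq2 (adjusted p = 0.0018) and the leaving out of either 3 h library (adjusted p = 0.0062 and 0.0046).

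Per length, Nr4a1 made up most of the family's transcripts at every stage, from 93.7% ± 1.31 (SD, n = 2) in naive cells to 86.4% ± 0.963 at 3 h and 75.2% ± 4.68 in expanded cells. The summed RPKM of the 3 genes was 12.2 and 11.6 in the naive libraries, 577 and 353 after 3 h, and 2.07 to 3.68 over the 4 day 4 libraries. Nr4a3 held between 6.35% in naive cells and 22.2% in expanded cells. Nr4a2 held at most 1.03% in each library from naive cells to 33 h and 10.8% and 9.74% in the plasmablast libraries.

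**Figure D2:**
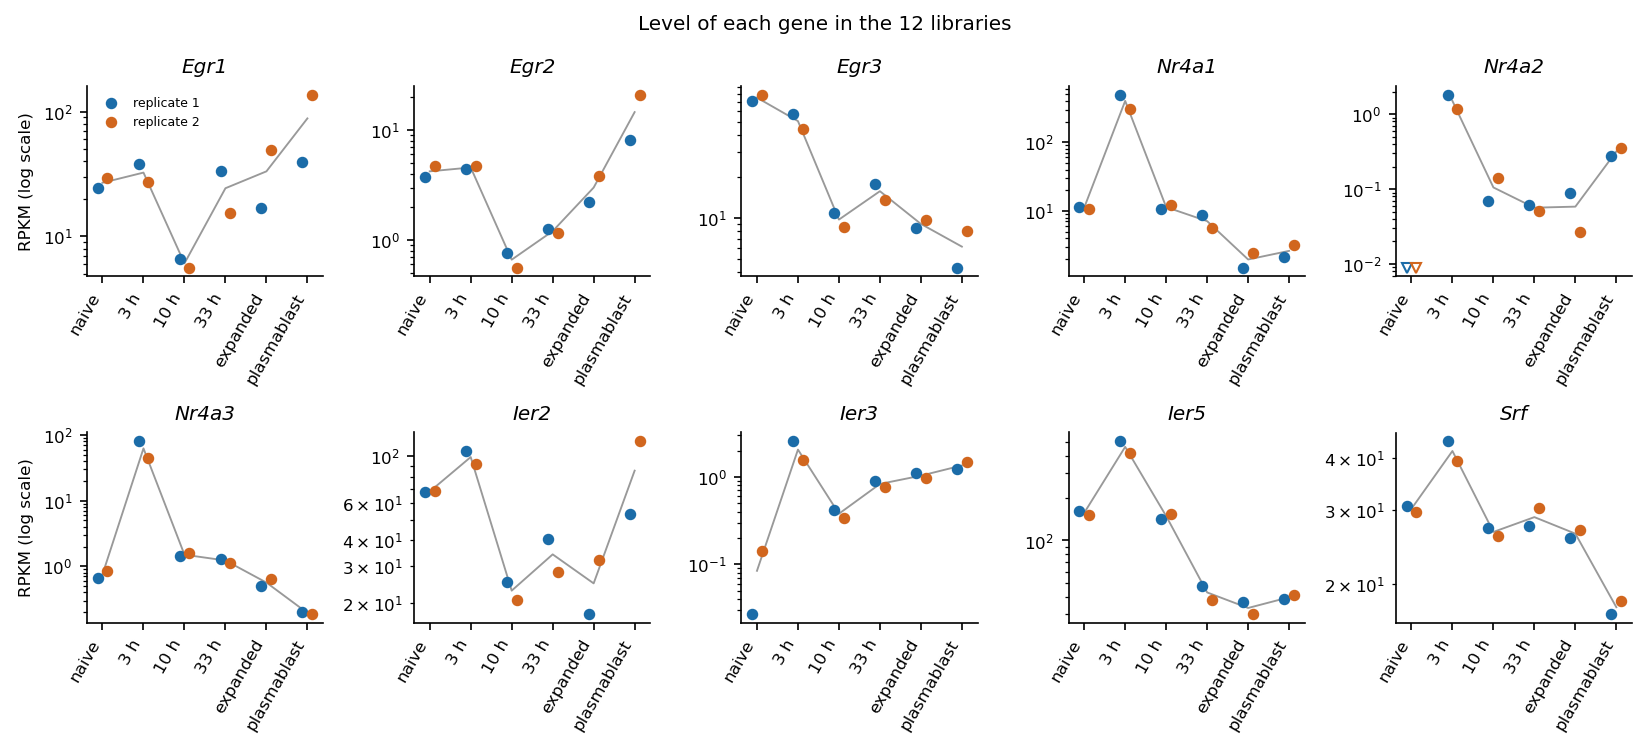
RPKM on a log scale for each of the 10 genes over the 6 stages, with each library as a point (blue, replicate 1; orange, replicate 2), the stage means joined by a grey line, and values of 0 as open triangles at the foot of the panel. Nr4a1, Nr4a3 and Ier5 peak at 3 h, Egr3 is highest in naive cells, and Egr1 and Egr2 are lowest at 10 h and highest in plasmablasts, where their libraries lie far apart.

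None of the 3 Egr genes was called at 3 h. No stage lay between naive cells and 3 h, so an earlier, brief rise of these or other members could not be seen. Egr1 (Entrez 13653; chromosome 18), the founding member of the family, stood at 24.3 and 29.6 RPKM in the naive libraries and at 37.9 and 27.1 after 3 h, an overlap (log2 0.27, SE 0.69, adjusted p = 0.99). It was lowest after 10 h, with 6.54 and 5.63, and stood at 33.2 and 15.5 after 33 h, 16.9 and 49.6 in expanded cells and 39.7 and 137 in plasmablasts. The 10 h libraries lay below all others, but the difference from 3 h was not called (log2 -2.41, SE 0.71, adjusted p = 0.055), nor was any other difference of Egr1, whose standard errors of 0.69 to 0.71 were the widest of the family. The fall at 10 h was called in 11 of 25 alternative analyses, among them the leaving out of any 1 of the day 4 libraries (adjusted p = 0.016 to 0.028).

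Egr2 (also Krox20; Entrez 13654; chr10:67534469-67542188) was at 3.76 and 4.67 RPKM in the naive libraries, 4.47 and 4.67 after 3 h, 0.764 and 0.562 after 10 h, 1.25 and 1.16 after 33 h, 2.21 and 3.79 in expanded cells, and 8.14 and 21.0 in plasmablasts. The naive libraries overlapped those of 3 h and of expanded cells, which did not overlap each other, and the 10 h and 33 h libraries were below them and the plasmablast libraries above. Egr2 fell 6.84-fold from 3 h to 10 h (log2 -2.77, SE 0.45, adjusted p = 0.0012) and rose 4.89-fold from expanded cells to plasmablasts (log2 2.29, SE 0.38, adjusted p = 0.0023). The latter was log2 1.47 (adjusted p = 0.0072) without plasmablast replicate 2, and was not called in the fit to these 4 libraries alone (log2 2.33, adjusted p = 0.24). Its rise from naive cells to plasmablasts (log2 1.80, SE 0.38, adjusted p = 0.0057) was log2 0.96 and not called without that library (adjusted p = 0.07), nor in the fit to the 4 libraries compared (adjusted p = 0.23).

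Egr3 (Entrez 13655; chr14:70077317-70082613) was highest in naive cells, at 71.4 and 79.2 RPKM, and went through 56.9 and 44.7 after 3 h to 10.9 and 8.53 after 10 h, 17.7 and 13.6 after 33 h, 8.45 and 9.62 in expanded cells, and 4.34 and 8.0 in plasmablasts. The step from naive cells to 3 h was within the 1.5-fold threshold (log2 -0.57, SE 0.22, adjusted p = 0.45), although the libraries did not overlap. The 33 h libraries lay above those of 10 h, a difference not called against the 1.5-fold threshold (log2 0.69, SE 0.23, adjusted p = 0.52) but called by the F-test (adjusted p = 0.029) and DESeq2 (adjusted p = 0.0056). It fell 5.22-fold from 3 h to 10 h (log2 -2.38, SE 0.23, adjusted p = 2.4e-05) and stood 12.1-fold below its naive level in plasmablasts (log2 -3.60, SE 0.24, adjusted p = 2.2e-07). Egr3 remained below naive cells at 10 h, 33 h and day 4 in all alternative analyses. The naive level, at the 92.4th percentile of tested genes, comes from the libraries with the myeloid and erythroid transcripts given above.

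The composition of the family changed accordingly. Egr3 made up 70.8% ± 1.40 (SD, n = 2) of the summed Egr RPKM in the naive libraries, 57.9% ± 0.791 after 3 h, 58.9% ± 1.29 after 10 h, 39.4% ± 7.80 after 33 h, 22.9% ± 10.9 in expanded cells and 6.57% ± 2.47 in plasmablasts. Egr1 went from 25.3% ± 1.16 in naive cells to 79.3% ± 4.56 in plasmablasts, and Egr2 from 3.95% ± 0.237 to 14.1% ± 2.09. The shares of the 2 plasmablast libraries were close (76.1% and 82.5% for Egr1) although the summed level was 52.2 RPKM in one and 166 in the other.

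**Figure D3:**
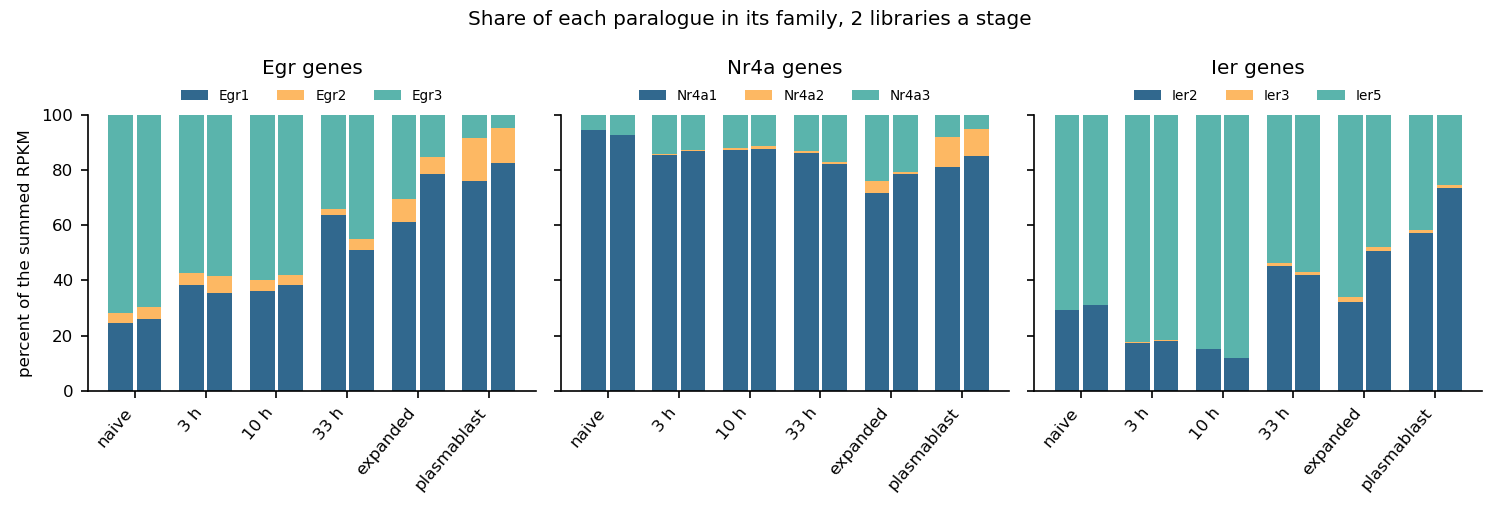
Percent of the summed RPKM of each family held by each paralogue, with 2 bars a stage for replicates 1 and 2. Egr3 makes up most of the Egr transcripts in naive cells and Egr1 in plasmablasts, Nr4a1 makes up most of the Nr4a transcripts throughout, and Ier2 overtakes Ier5 in plasmablasts.

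Among the Ier genes, Ier5 (Entrez 15939; chr1:155096367-155099636), a regulator of heat shock factor HSF1, was the most abundant until 33 h: 163 and 151 RPKM in the naive libraries, 506 and 416 after 3 h, 143 and 155 after 10 h, 47.7 and 38.0 after 33 h, 36.4 and 30.1 in expanded cells, and 38.4 and 40.8 in plasmablasts. The 3 h libraries were above all others, naive and 10 h libraries overlapped, and all later libraries were lower. It rose 2.93-fold at 3 h (log2 1.55, SE 0.13, adjusted p = 3.6e-06), fell 3.10-fold by 10 h (log2 -1.63, SE 0.13, adjusted p = 5.5e-06) and fell a further 3.47-fold by 33 h (log2 -1.79, SE 0.13, adjusted p = 2.6e-06), with no later call. These 3 calls were made in every alternative analysis.

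Ier2 (Entrez 15936; chr8:84661331-84662852), encoded by a gene without introns, stood at 67.5 and 68.5 RPKM in the naive libraries and at 106 and 92.3 after 3 h, a difference that was not called (log2 0.54, SE 0.35, adjusted p = 0.52). Later values were 25.2 and 20.8 after 10 h, 40.3 and 28.1 after 33 h, 17.8 and 32.0 in expanded cells, and 52.9 and 118 in plasmablasts. It fell 4.30-fold from 3 h to 10 h (log2 -2.11, SE 0.36, adjusted p = 0.0027), which was not called without 3 h replicate 1 (adjusted p = 0.063). It rose 3.44-fold from expanded cells to plasmablasts (log2 1.78, SE 0.36, adjusted p = 0.0097), which was log2 1.12 and not called without plasmablast replicate 2 (adjusted p = 0.077), and also lost in 4 other alternatives, among them the fit to these 4 libraries alone (adjusted p = 0.32). Ier2 held 30.2% ± 1.32 of the summed Ier RPKM in naive cells and 65.4% ± 11.6 in plasmablasts, while Ier5 went from 69.7% ± 1.36 to 33.5% ± 11.3.

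Ier3 (also IEX-1; Entrez 15937; chr17:35821713-35822911), a target of NF-κB linked to cell survival, was the least abundant of the Ier genes, with 1 and 4 counts in naive cells. It had 50 and 51 counts after 3 h (2.56 and 1.54 RPKM), 22 and 14 after 10 h, 57 and 29 after 33 h, 48 and 35 in expanded cells and 32 and 45 in plasmablasts (1.24 and 1.46 RPKM). The ratio of summed, scaled counts was 24.9 at 3 h against naive cells, with an exact 95% counting interval from 10.3 to 78.3, and its rise was called (adjusted p = 8.9e-06). It fell 5.18-fold by 10 h (log2 -2.37, SE 0.38, adjusted p = 5.5e-04) and remained above naive cells, with ratios of 5.0 after 10 h (interval 1.95 to 16.3), 13.5 in expanded cells and 17.7 in plasmablasts (interval 7.26 to 56.0). Intervals cover counting error only, and the fitted log2 fold change from naive cells to 3 h ran from 3.77 without naive replicate 1 to 6.04 without naive replicate 2, and to plasmablasts from 3.22 to 5.48. The call at 10 h against naive cells was lost without naive replicate 1 (adjusted p = 0.2) or 10 h replicate 1 (adjusted p = 0.075).

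Srf (Entrez 20807; chr17:46546838-46558267) varied least. Its levels were 30.7 and 29.8 RPKM in the naive libraries, 43.8 and 39.2 after 3 h, 27.2 and 26.1 after 10 h, 27.5 and 30.3 after 33 h, 25.8 and 27.0 in expanded cells, and 17.0 and 18.3 in plasmablasts. Although the 3 h libraries were above all others and the plasmablast libraries below all others, no step between consecutive stages passed the 1.5-fold threshold (log2 0.46, SE 0.09, adjusted p = 0.96 at 3 h; log2 -0.64, SE 0.09, adjusted p = 0.26 at 10 h). A test of any change called both steps (adjusted p = 4.6e-04 and 3.9e-05, edgeR F-test), as it did 71.0% and 62.3% of all genes. Plasmablasts were 1.71-fold below naive cells (log2 -0.78, SE 0.09, adjusted p = 0.015), a call lost without naive replicate 1 (adjusted p = 0.055) or plasmablast replicate 1 (adjusted p = 0.09). The Srf gene overlaps the noncoding gene Gm26904 on the other strand and a microRNA gene on its own, and the strand setting of the counting is not given in the sources used here, so reads of these cannot be told apart. No other member overlaps an annotated gene.

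**Figure D4:**
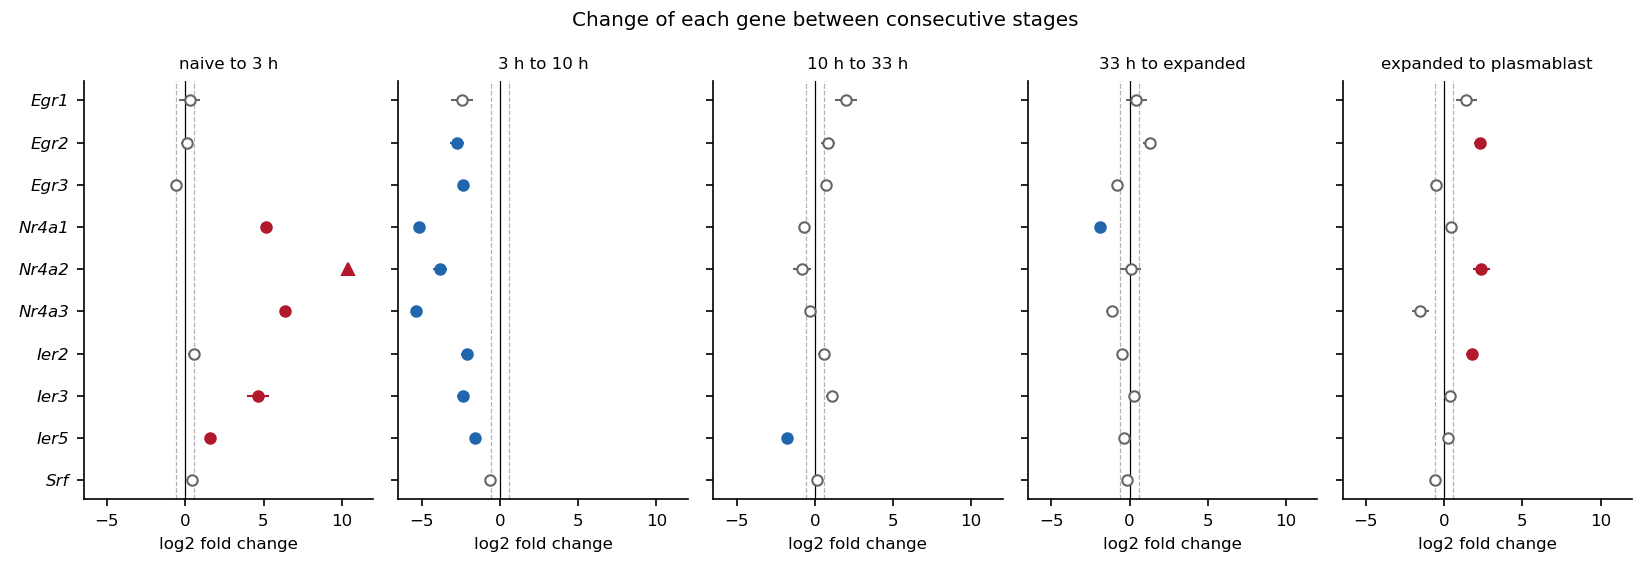
Log2 fold change with its standard error for each gene in the 5 comparisons of consecutive stages; filled red and blue points are called higher and lower (adjusted p under 0.05 against a fold change of 1.5), open points are not called, and dashed lines mark 1.5-fold. The triangle is the fitted value of Nr4a2 at 3 h, which has no error and no fixed size because both naive libraries are at 0; 5 genes are higher at 3 h and 8 lower at 10 h.

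Counted over the members, 5 of 10 were called from naive cells to 3 h, all of them higher, against 45.3% of all genes tested (21.0% higher and 24.3% lower). Their median log2 fold change was 1.05, also with Nr4a2 at its lower bound, against -0.0313 for all genes. Nr4a2 exceeded the filter level in both libraries of a stage only at 3 h and in plasmablasts, and Ier3 at every stage but naive cells. Their entry into the test is thus not independent of their calls as higher at those stages, here and in the counts below. From 3 h to 10 h, 8 of 10 were called and all were lower, against 30.8% of all genes called (17.4% higher and 13.4% lower), with a median of -2.40 against 0.0178. Egr1 and Srf were the exceptions. From 10 h to 33 h only Ier5 was called, lower, against 14.5% of all genes (10.1% higher and 4.45% lower). From 33 h to expanded cells only Nr4a1, lower, against 10.6% (6.94% higher and 3.66% lower). Over these later steps the members' medians were 0.35 and -0.25. From expanded cells to plasmablasts Egr2, Nr4a2 and Ier2 were called, all higher, against 26.1% of all genes (13.9% higher and 12.2% lower). Without plasmablast replicate 2 only 1 of them, Egr2, was called.

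Set against naive cells, which these comparisons share, 5 members were called at 10 h (39.4% of all genes, 19.5% higher and 19.9% lower), with Nr4a2 and Ier3 higher and Egr2, Egr3 and Ier2 lower. At 33 h 5 were called (43.1%, 22.3% higher and 20.8% lower), Ier5 taking the place of Ier2 among the lower ones. In expanded cells 6 were called (47.2%, 24.9% higher and 22.2% lower), with Nr4a2 and Ier3 higher and Egr3, Nr4a1, Ier2 and Ier5 lower. In plasmablasts 8 were called (50.0%, 26.6% higher and 23.4% lower), with Egr2, Nr4a2 and Ier3 higher and Egr3, Nr4a1, Nr4a3, Ier5 and Srf lower. Some of these calls rest on single libraries: at 33 h Egr2 was not called without either 3 h library or either 33 h library (adjusted p = 0.052 to 0.065). Also at 33 h, Nr4a2 was not called without either naive library or 33 h replicate 1 (adjusted p = 0.05 to 0.085). In expanded cells Nr4a2 was not called without naive replicate 1 (adjusted p = 0.073) or expanded replicate 1 (adjusted p = 0.093). Ier2 was not called at 10 h or in expanded cells without either 3 h library (adjusted p = 0.067 to 0.08), nor without 10 h replicate 2 (adjusted p = 0.092) or expanded replicate 1 (adjusted p = 0.13).

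The 2 libraries of a stage differed for some of these genes by more than for most others, in both directions. In expanded cells replicate 2 was above replicate 1 by 1.55 on the log2 scale for Egr1, 0.85 for Ier2, 0.77 for Egr2 and 0.70 for Nr4a1, and below it by 1.27 for Nr4a2 with its 12 and 3 counts, where the SD of this difference over all tested genes was 0.30. In plasmablasts replicate 2 was above replicate 1 by 1.79 for Egr1, 1.36 for Egr2, 1.15 for Ier2 and 0.88 for Egr3, with an SD of 0.35 over all genes, and only 0.322% of tested genes differed as much as Egr1. At 33 h replicate 2 was lower by 1.10 for Egr1, and at 3 h lower by 0.86 for Nr4a3 and 0.69 for Nr4a1 (SD 0.38 and 0.53 over all genes). In naive cells Ier3 had 1 and 4 counts, and 2.12% of tested genes had replicates as far apart. Fos went with Egr1, at 1.88 and 5.16 RPKM in expanded cells, 11.6 and 24.3 in plasmablasts and 0.816 and 0.313 at 33 h. It was named after its values were seen, and over these same libraries it had the highest correlation with Egr1 of all other tested genes. Fos is 1 of 32 other immediate early genes tested. Of these 32, 2 were higher in replicate 2 by over 1 in expanded cells and 1 in plasmablasts (medians 0.12 and 0.16). Of all tested genes, 1.05% and 1.68% were higher by over 1 at these stages. At 33 h 1 was lower by over 1 (median -0.13). Srf differed by no more than 0.16 at any stage, and Ier5 by no more than 0.33. Of 10 heat shock and handling genes, none differed between the replicates by over 1 at any stage, with medians of -0.02 in expanded cells and 0.07 in plasmablasts. As only 0.910% to 4.20% of all tested genes were higher by over 1 in replicate 2 of a stage, a count of 0 among 10 cannot set this list apart.

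**Figure D5:**
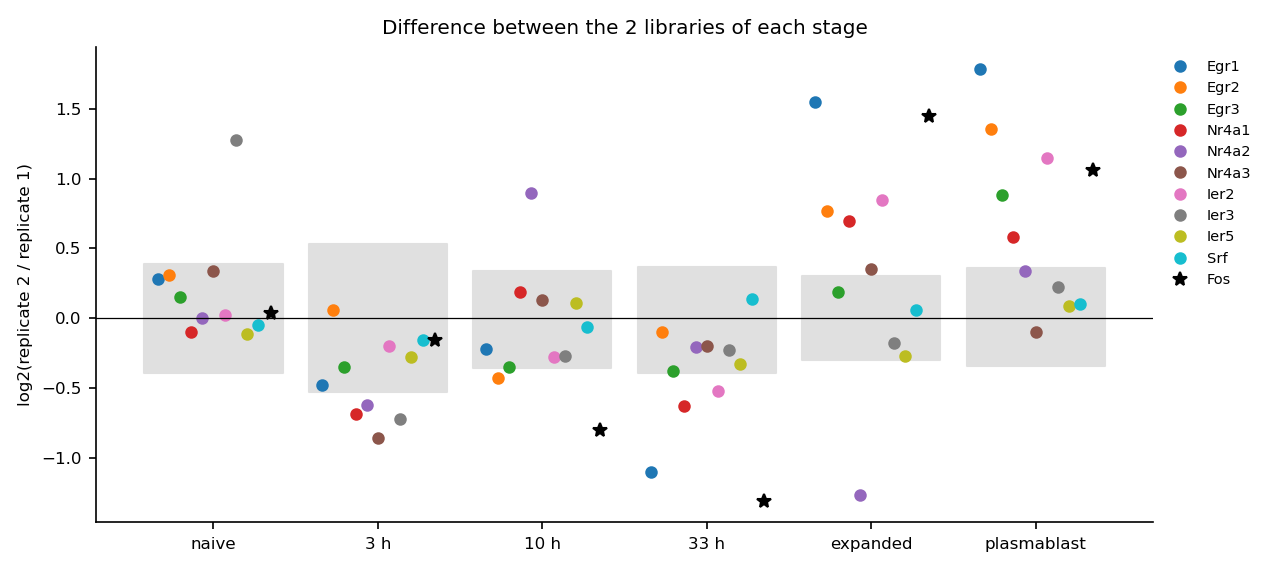
Log2 ratio of replicate 2 to replicate 1 for the 10 genes (circles) and Fos (stars) at each stage, from log2 CPM with a prior count of 2; grey bands are 1 SD on either side of the median over all tested genes. Egr1, Egr2, Ier2 and Fos lie above the band in expanded cells and plasmablasts, while Srf and Ier5 stay within it at every stage.

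Over the 12 libraries, which share the depth and scaling of each library and fall into 6 stages, some pairs of members were alike in pattern. Pearson's r of log2 CPM was 0.96 between Nr4a1 and Nr4a3, 0.91 between Nr4a1 and Ier5, and 0.89 between Egr1 and Egr2. Srf had an r of 0.87 with Nr4a3 and 0.82 with Nr4a1, and Nr4a3 one of 0.82 with Ier5. Next came Nr4a2 with Ier3 (0.80) and Egr2 with Ier2 (0.78). Egr3 was nearer to Srf (0.77) and Ier5 (0.72) than to Egr1 (0.05) or Egr2 (0.10). Of all other tested genes, Fos had the highest r with both Egr1 (0.91) and Egr2 (0.97). The genes nearest to Nr4a1 were Phrf1, Stat3 and Foxp4, and those nearest to Nr4a3 were Prpf4b, Nfkbid and Ptger4, all at 0.99 or above. Nab1, a corepressor of EGR proteins, was among the 3 genes nearest to Ier3 (0.95). The choice depends on the measure: by Spearman's rank correlation at most 2 of the 3 nearest genes of any member were the same.

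The other immediate early genes, a list of 35 names of which 32 were tested, were called higher in 19 and lower in 4 at 3 h (median log2 fold change 1.99), that is 59.4% and 12.5% against 21.0% and 24.3% of all genes tested. Pim1, a kinase that promotes survival, rose from a mean of 24.6 to 859 RPKM (log2 5.12, SE 0.30, adjusted p = 8.7e-07), and Fosl1, a Fos family member, from 0 counts in naive cells to 1.52 RPKM (adjusted p = 3.3e-06). Dusp6, a phosphatase of ERK, fell from 25.1 to 1.44 RPKM (log2 -4.18, SE 0.25, adjusted p = 5.4e-08) and Klf2, a factor of quiescent lymphocytes, from 498 to 81.1 (log2 -2.62, SE 0.22, adjusted p = 5.0e-06). By 10 h 26 of the 32 were lower than at 3 h and 1, Atf3, was higher (median -2.09), with Dusp5 and Maff falling most. These were 81.2% lower and 3.12% higher, against 13.4% and 17.4% of all genes. In plasmablasts 12 were higher than in expanded cells and 2 lower (median 0.83), or 37.5% and 6.25% against 13.9% and 12.2% of all genes. The ERK phosphatase gene Dusp1 rose from 2.88 to 16.0 RPKM (log2 2.49, SE 0.37, adjusted p = 7.6e-04) and Ier5l, a relative of Ier5, from 2.66 to 16.4 (log2 2.62, SE 0.20, adjusted p = 1.2e-06), while Klf2 fell (log2 -5.70, SE 0.33, adjusted p = 1.5e-07). Fos itself, at 3.25 and 3.33 RPKM in the naive libraries and 2.72 and 2.43 after 3 h, was at its lowest at 10 h, with 22 and 9 counts (log2 -4.25 against naive cells, SE 0.80, adjusted p = 7.1e-04).

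Among the regulators of these genes, 4 SRF cofactors were tested. Mrtfa, the actin-regulated coactivator of SRF, fell at 3 h (log2 -1.06, SE 0.10, adjusted p = 1.2e-04), again at 10 h (log2 -0.80, SE 0.10, adjusted p = 0.023) and again in plasmablasts (log2 -0.84, SE 0.10, adjusted p = 0.014), from a mean of 48.0 RPKM in naive cells to 8.09. The ternary complex factor genes Elk3 and Elk4 were not called at any of the consecutive steps. Elk1, also on the list of SRF cofactors, was not among the genes tested. Of the 22 ERK pathway genes tested, 8 were higher and 2 lower at 3 h, or 36.4% and 9.09% against 21.0% and 24.3% of all genes. In either direction the share called was about the 45.3% of all genes. The MAP3 kinase gene Map3k8 rose most (log2 3.08, SE 0.18, adjusted p = 3.4e-08). From 3 h to 10 h 2 were higher and 8 lower, or 9.09% and 36.4% against 17.4% and 13.4% of all genes. The ERK inhibitor gene Spred2 fell most (log2 -4.01, SE 0.25, adjusted p = 8.7e-08). Spred2 rose again by 33 h (log2 3.89, SE 0.25, adjusted p = 8.4e-08).

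Of 9 partners of EGR and NR4A proteins, only Nab1 was called at 3 h, against 45.3% of all genes (log2 0.82, SE 0.10, adjusted p = 0.01). Nab2, a corepressor whose gene is itself an EGR target, fell from 28.8 RPKM at 3 h to 6.22 at 10 h (log2 -2.21, SE 0.19, adjusted p = 7.1e-06) and rose from 6.41 in expanded cells to 13.0 in plasmablasts (log2 1.02, SE 0.19, adjusted p = 0.022). Rxra, a heterodimer partner of NR4A1 and NR4A2, fell in plasmablasts (log2 -2.31, SE 0.20, adjusted p = 3.8e-06). Cytoskeletal genes regulated through the MRTF coactivators are the other large group of SRF targets. Of 15 tested, 1 was higher and 4 lower at 3 h (median -0.43), the 26.7% lower being near the 24.3% of all genes. At 33 h 3 of the 15 were higher and 0 lower than at 10 h, against 10.1% and 4.45% of all genes. In plasmablasts 7 were lower and 1 higher than in expanded cells (median -0.74), or 46.7% and 6.67% against 12.2% and 13.9% of all genes, with Actg1, cytoplasmic actin, falling from 306 to 68.8 RPKM and Zyx, zyxin, rising from 7.64 to 25.9. Of the 10 heat shock and handling genes, 8 were higher at 3 h than in naive cells (median 1.70, against 21.0% of all genes), at the same step as the rise of Nr4a1, Nr4a2, Nr4a3, Ier3 and Ier5. From 3 h to 10 h 2 of them were lower and 1 higher (median 0.22), against 13.4% and 17.4% of all genes. At 10 h, 33 h and in expanded cells 6, 7 and 7 were still above naive cells (medians 1.21, 1.24 and 1.09). Of all genes 19.5%, 22.3% and 24.9% were called higher than in naive cells at these stages. Hspa1a, an inducible heat shock protein gene, rose from 0.211 to 1.99 RPKM (log2 3.25, SE 0.31, adjusted p = 1.5e-06) and was 1 of the 2 that fell by 10 h, to 0.149. From expanded cells to plasmablasts 6 of them were lower (against 12.2% of all genes) and 1, the endoplasmic reticulum chaperone gene Hspa5, higher. The part of handling in the levels of the members was not tested.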

How the data were processed

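RNA-Seq libraries (TruSeq, paired-end) were aligned by the authors to mm10 with Rsubread and counted per Entrez gene with featureCounts and its inbuilt annotation, and the labels also name CASAVA 1.8.2. The deposited values are raw counts, with no normalization, and the exon length of each gene. Whether reads or pairs were counted, and on which strand, is not given in the sources used here. The single-sample tables equalled the series table in all 12 libraries.

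Genes without a match in the annotation table, mitochondrial, ribosomal RNA, X and Y genes and variable immunoglobulin segments were removed, as in the study's methods, which left 23700 of 27179 genes. edgeR 4.0.16 (R 4.3.3) kept 12750 with filterByExpr, scaled them by TMM and fitted a one-way layout of all 12 libraries (glmQLFit, robust, legacy). glmTreat tested 9 comparisons against a fold change of 1.5, with calls at an adjusted p of 0.05 (Benjamini-Hochberg over all genes). The stages share 1 estimate of the spread. Standard errors came from the model's weights and moderated dispersion. RPKM used TMM-scaled library sizes. On simulated counts for naive to 3 h (12293 genes, 200 changed), 64% of genes changed 2-fold and 96% of those changed 4-fold were called, and 0 unchanged genes. Each simulated gene had 1 mean over all libraries and the spread of the abundance trend, and unchanged genes lay well within the 1.5-fold threshold. In the data 45.3% of genes were called at this step and Egr1 had an SE of 0.69. The simulated shares therefore do not measure power or error for the members.

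Text names the 10 members, the 3 genes of highest Pearson correlation with each, and at most 2 largest and 2 smallest changes of each list per comparison; per-library values of Fos were given outside that rule after they were seen. The members and lists were chosen with earlier results of these data known. Alternatives were other scalings, tests, filters and thinning, DESeq2 1.42.0, the replicate number as a block, and leaving out libraries.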

Additional observations from a re-analysis of the deposited data

How the results depend on the processing

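Of the members' fold changes, 1097 of 1170 kept direction and call when libraries were left out, 1 at a time or expanded and plasmablast replicate 2 together, a pair chosen after the data were seen. In the other alternatives 982 of 1048 did. No called change reversed. Counts of members called moved by more than 1.5 times as follows. From naive cells to 3 h, 2 were called with at least 10 counts required in every library, where Nr4a2, Nr4a3 and Ier3 were not tested, and that filter gave 3 from naive cells to 33 h and 5 to plasmablasts. From 10 h to 33 h, DESeq2 gave 4, the F-test without a fold threshold 3 and no filter on low counts 2. From 33 h to expanded cells, DESeq2 gave 4, the F-test 5, no filter 3 and the 4 libraries alone 2. From expanded cells to plasmablasts, library size alone, the F-test and no filter gave 5 each. The cause was not tested. Leaving out libraries gave 5 to 5 from naive cells to 3 h, 7 to 9 from 3 h to 10 h, 1 to 2 from 10 h to 33 h, 0 to 2 from 33 h to expanded cells, 1 to 3 from expanded cells to plasmablasts and, against naive cells, 4 to 6 at 10 h, 3 to 6 at 33 h, 4 to 6 in expanded cells and 6 to 8 in plasmablasts. The count of 0 came without 33 h replicate 1 or expanded replicate 1, 1 without plasmablast replicate 2, and 3 without 33 h replicate 1.

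Directions that reversed were of changes called in neither analysis. Egr2 from naive cells to 3 h was -0.08 by library size alone, and Nr4a1 from naive cells to 10 h -0.06 with DESeq2 or its size factors, -0.03 with at least 10 counts and -0.02 in the 4 libraries alone. Nr4a2 from 33 h to expanded cells was -0.19 after thinning, Ier5 from expanded cells to plasmablasts -0.09 and from naive cells to 10 h 0.04 by library size alone. With libraries left out, Egr1 ranged from -0.53 to 1.10 (33 h to expanded), -0.79 to 0.32 (naive to 33 h) and -0.68 to 0.89 (naive to expanded), Egr2 from -0.03 to 0.29 (naive to 3 h), Nr4a1 from -0.07 to 0.13 (naive to 10 h), Nr4a2 from -1.07 to 0.66 (33 h to expanded), Ier2 from -0.36 to 0.80 (naive to plasmablast) and Srf from -0.12 to 0.01 (naive to 33 h).

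Library size alone moved the median log2 fold change of all genes to -0.24 from naive cells to 3 h, 0.35 from 3 h to 10 h, -0.38 from expanded cells to plasmablasts, 0.14 from naive cells to 10 h and -0.26 to plasmablasts, and the share of calls that were higher from 46.3% to 36.0% at 3 h. Over the whole table the F-test called 9052, 7942, 5798, 5053 and 7256 genes in the consecutive comparisons against 5774, 3932, 1855, 1352 and 3329. DESeq2 called 3233 from 10 h to 33 h and 2615 from 33 h to expanded cells, where at least 10 counts gave 712 and the lack of 33 h replicate 1 gave 855. A block on the replicate number gave 5, 8, 1, 1 and 3 members in the consecutive comparisons and 5, 5, 6 and 8 against naive cells, the same calls as without it. Deviations of same-numbered libraries correlated at -0.139 to 0.0841, highest between expanded cells and plasmablasts. No label says that a number marks a shared animal or culture, and whether any did was not tested. Total counts in place of scaled sizes moved 16 of 60 mean RPKM values by over 1 SD. Depth limits Nr4a2, Ier3 and, in plasmablasts, Nr4a3, with under 60 counts a library outside 3 h.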
